A study of Rattus norvegicus with 48 samples.

Results

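The miR-181 family was followed in the blood plasma of rats over the healing of a calvaria (skull) defect. The members are the 6 mature miRNAs rno-miR-181a-5p, rno-miR-181b-5p, rno-miR-181c-5p, rno-miR-181d-5p, rno-miR-181a-1-3p and rno-miR-181a-2-3p (written below without the prefix for the rat), of 645 mature rat miRNAs in the count table, and all 6 were found in each of the 48 samples. The family was picked because its members moved in different directions over time in these same samples, so the values at weeks 1, 4 and 8 against baseline are given as a description, and calls of members there are counted only beside the share called over all miRNAs, not as evidence. The comparison of strong with weak regenerators was not used for the choice and was tested. Plasma small RNA was sequenced from 12 male rats, which were 12 weeks old at the start, with tail vein blood taken ahead of surgery (week 0, the baseline) and again 1, 4 and 8 weeks later. The study's text names the strain in one place as Sprague-Dawley and in another as Wistar, and the labels give none. Of the 12 rats, 6 were strong ("good") and 6 were weak ("bad") regenerators, chosen at week 8 by the bone volume in microcomputed tomography, so each group had 6 samples at each time point. Their defects had been left empty or filled with a plain collagen hydroxyapatite scaffold, one carrying plasmid for BMP2 and miR-590-5p, or one carrying extracellular vesicles of mesenchymal stromal cells. Both groups mix such treatments, but not evenly: by the study's account, no weak regenerator had the plain scaffold and more weak than strong ones had the plasmid scaffold, so treatment and regeneration group cannot be fully told apart. The treatment of the single rats is not used here. The total miRNA count per sample lay between 393259 and 1586398, and levels are given as RPM, reads per 1000000 miRNA reads.

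A miRNA is a short RNA that guides silencing proteins to messenger RNAs, mainly by pairing of its seed, the bases 2 to 8 from the 5′ end. Each hairpin precursor can give 2 mature miRNAs, the 5p arm and the 3p arm, of which one usually dominates. The miR-181 family is widely expressed in vertebrates and is best known for its roles in the development of lymphocytes, where miR-181a tunes the sensitivity of the T cell receptor, and in haematopoietic and vascular cells. Its hairpins lie in clusters of an a-type or c-type hairpin beside a b-type or d-type hairpin. miRNAs in plasma are carried by vesicles, proteins and lipoproteins, and come from blood cells, vessels and organs. In such a bulk sample, more cells that release a miRNA and more release per cell cannot be told apart.

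The mature sequences are shown because the 4 5p members carry the same seed and differ in so few bases that their reads can be hard to separate. All 6 members were matched by name to the RefSeq table of the GRCr8 assembly, and the seed is in capitals. The first group shares the seed ACAUUCA, which no other rat miRNA in that table has.
miR-181a-5p: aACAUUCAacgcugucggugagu
miR-181b-5p: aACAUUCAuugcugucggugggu
miR-181c-5p: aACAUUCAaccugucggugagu
miR-181d-5p: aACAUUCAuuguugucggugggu
The 3p members have other seeds, and miR-181c-3p, the other arm of the miR-181c hairpin, is shown with them because it has the seed of miR-181a-1-3p.
miR-181a-1-3p: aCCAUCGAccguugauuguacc
miR-181c-3p: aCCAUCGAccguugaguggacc
miR-181a-2-3p: aCCACCAAccguugacugu

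Counted from 1 at the 5′ end, miR-181b-5p and miR-181d-5p differ by the substitution C12U alone. miR-181a-5p differs from miR-181b-5p by A9U, C10U and A21G. miR-181c-5p has 22 bases where miR-181a-5p has 23, and 1 deleted base turns the latter into the former. miR-181a-1-3p and miR-181c-3p differ by U16G and U19G. The authors allowed 1 mismatch when they assigned reads to the miRNAs, so reads of close members could be divided between them, and their levels are uncertain to that extent. The counts of no member were identical to those of another row of the table. In the RefSeq annotation, Mir181a-1 and Mir181b1 neighbour each other on chromosome 13, Mir181a2 and Mir181b2 on chromosome 3, where they overlap the protein-coding gene Nr6a1, and Mir181c and Mir181d on chromosome 19. miR-181a-5p is made from hairpins on both chromosomes 3 and 13, while miR-181a-1-3p and miR-181a-2-3p are each the 3p arm of one of them.

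miR-181a-5p was the most abundant member, with a mean of 9731 RPM over the 48 samples, or 0.973% of the miRNA reads, which placed it 22nd of the 645 miRNAs. miR-181b-5p followed with 2576 RPM, miR-181d-5p with 1323, miR-181c-5p with 1132, miR-181a-1-3p with 208 and miR-181a-2-3p with 20.9. These levels count reads, not molecules, of miRNAs between 19 and 23 bases long. miR-181a-5p lay above miR-181b-5p in 48 of 48 samples, and miR-181b-5p lay above miR-181d-5p in 47. miR-181d-5p and miR-181c-5p were neighbours whose order changed. miR-181d-5p was the higher of the pair in 12 of 12 samples at baseline and at week 1, in 11 at week 4 and in 4 at week 8. miR-181c-5p lay above miR-181a-1-3p, and miR-181a-1-3p above miR-181a-2-3p, in all 48 samples. miR-181a-2-3p rested on 4 to 53 reads per sample, so its values carry the largest counting error of the 6.

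Other arms of these hairpins were rarer. miR-181c-3p had a mean of 98.0 RPM, while miR-181b-1-3p, miR-181d-3p and miR-181b-2-3p had means of 0.871, 0.667 and 0.359 RPM. The reads of miR-181a-5p cannot be divided between its 2 hairpins, so the balance of arms of each of these was not measured.

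**Figure D1:**
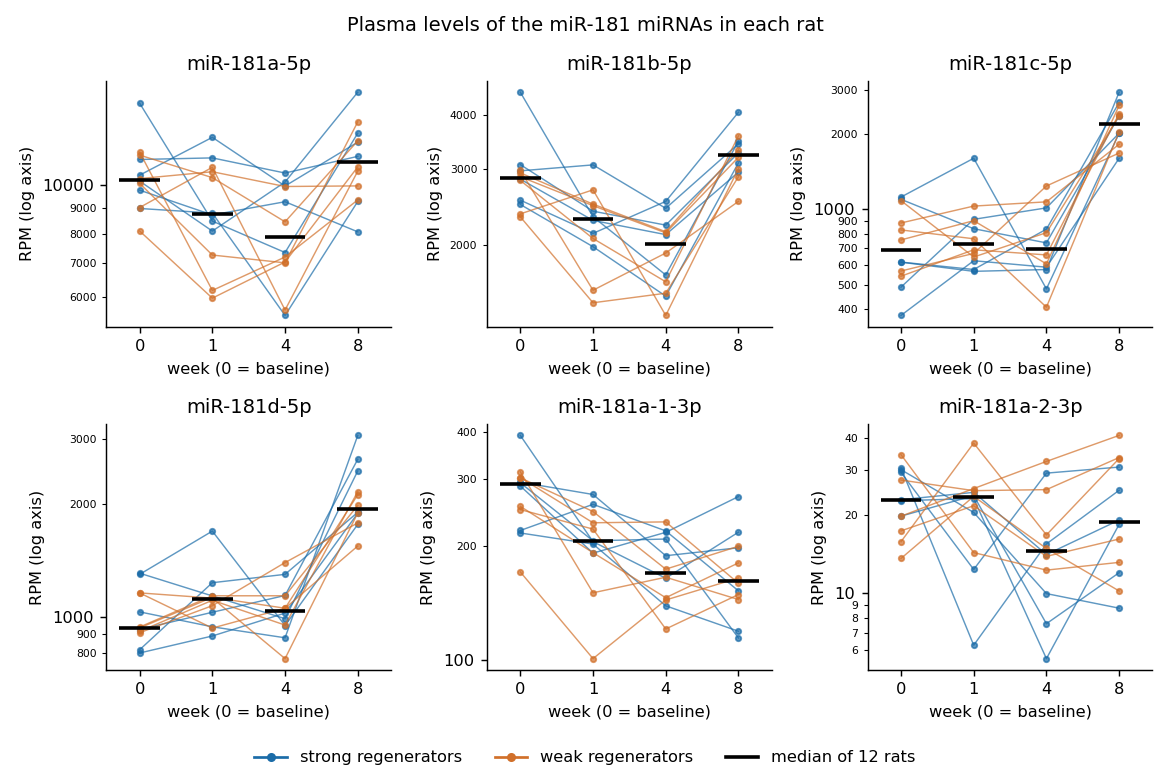
Level of the 6 miR-181 miRNAs in plasma (RPM, log axis) at baseline and weeks 1, 4 and 8, with a line for each of 6 strong (blue) and 6 weak (orange) regenerators and a black bar for the median of the 12 rats. At week 8, miR-181c-5p lay between 1600.5 and 2939.6 RPM, above all earlier samples, while blue and orange lines run through each other in every panel.

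miR-181c-5p and miR-181d-5p, which share a cluster on chromosome 19, had the largest fold changes of the 6 members at week 8 relative to the miRNA total, while scaling to spike-in reads turned both below baseline. At baseline, miR-181c-5p spanned 377 to 1119.9 RPM (median 685). It spanned 565 to 1600.3 RPM (median 726) at week 1, 406 to 1240.0 RPM (median 696) at week 4 and 1600.5 to 2939.6 RPM (median 2202) at week 8. Every week 8 sample was thus above each of the 36 samples of the earlier time points, with the lowest of them hardly above the highest earlier one. In strong regenerators, the median of miR-181c-5p was 615 RPM at baseline and 2191 at week 8, and in weak regenerators it was 791 and 2202. The log2 fold change against baseline was 0.25 (standard error 0.18) at week 1, 0.10 (0.18) at week 4 and 1.66 (0.19) at week 8, or 3.16-fold. Among the 310 miRNAs with a mean of at least 10 RPM, this was the 4th highest value at week 8. From its own baseline, miR-181c-5p was higher in 7 of the 12 rats at week 1, in 6 at week 4 and in 12 at week 8, where the change of single rats lay between 0.85 and 2.25 on the log2(RPM + 1) scale.

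miR-181d-5p spanned 800 to 1309 RPM (median 936) at baseline, 888 to 1697 RPM (median 1115) at week 1, 772 to 1397 RPM (median 1038) at week 4 and 1548 to 3063 RPM (median 1947) at week 8. All 12 week 8 samples exceeded the highest baseline sample, but 1 week 1 sample, that of strong rat 5, overlapped with them. Its log2 fold change was 0.25 (standard error 0.13) at week 1, 0.15 (0.13) at week 4 and 1.14 (0.13) at week 8, or 2.20-fold. It was higher than at baseline in 8, 7 and 12 of the 12 rats. The week 8 value was the 14th highest of the 310 abundant miRNAs. The medians at baseline and week 8 were 978 and 2183 RPM in strong regenerators and 936 and 1943 RPM in weak ones.

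miR-181a-5p and miR-181b-5p, the abundant members made from the clusters on chromosomes 3 and 13, had their lowest median RPM at week 4, whereas with scaling to UniSp2 reads their log2 fold changes were lower at week 8 (-1.77 and -1.71) than at week 4 (-0.67 and -0.88). miR-181a-5p spanned 8099 to 14464 RPM (median 10215) at baseline, 5971 to 12388 RPM (median 8748) at week 1, 5521 to 10535 RPM (median 7894) at week 4 and 8067 to 15204 RPM (median 11098) at week 8. The ranges of all time points overlapped, although each of the 12 rats was lower at week 4 than at its own baseline. The log2 fold change of miR-181a-5p was -0.12 (standard error 0.10) at week 1, -0.27 (0.10) at week 4 and 0.17 (0.10) at week 8.

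miR-181b-5p spanned 2323 to 4510.3 RPM (median 2858) at baseline, 1470.4 to 3063 RPM (median 2302) at week 1, 1375 to 2522 RPM (median 2015) at week 4 and 2522 to 4054 RPM (median 3228) at week 8. At week 4, all 12 rats were below their own baseline and 10 of the 12 were below the lowest baseline sample. Its log2 fold change was -0.27 (standard error 0.10), -0.49 (0.10) and 0.23 (0.10) at weeks 1, 4 and 8. At week 8, 10 of 12 rats were above their own baseline, yet none exceeded the highest baseline sample, that of strong rat 5.

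Of the 3p arms, miR-181a-1-3p had lower values at each week after surgery. The study also lists miR-181a-1-3p among the miRNAs it called lower than baseline at each of these weeks. It spanned 171 to 392 RPM (median 291) at baseline, 101 to 274 RPM (median 206) at week 1, 121 to 232 RPM (median 169.6) at week 4 and 114 to 270.1 RPM (median 162) at week 8. Against their own baseline, 11 of 12 rats were lower at week 1 and 12 of 12 at weeks 4 and 8, while the ranges overlapped. The log2 fold change was -0.33 (standard error 0.12) at week 1, -0.55 (0.12) at week 4 and -0.62 (0.12) at week 8. miR-181a-2-3p had medians of 22.9, 23.5, 14.5 and 18.8 RPM at baseline and weeks 1, 4 and 8, with ranges that overlapped throughout. Its log2 fold change was -0.00, -0.41 and -0.05 (standard error 0.25 at each week), and 5, 9 and 8 of the 12 rats were below baseline.

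The edgeR fit over all miRNAs put these values beside those of the rest of the table, with calls at an FDR under 0.05. At week 1, 2 of the 5 members that passed the filter on low levels were called, both lower (miR-181b-5p and miR-181a-1-3p), against 21.6% of the 232 miRNAs tested, 9.05% of them lower. With the rat as a block, 0 of 6 members were called at week 1, against 49 of 407 miRNAs. At week 4, the same 2 of the 6 members were called lower, against 4.19% of 645, 4.03% of them lower. At week 8, miR-181c-5p and miR-181d-5p were called higher and miR-181a-1-3p lower, against 40.3% of 620, with 14.2% higher and 26.1% lower. As these contrasts chose the family, nothing is read from the counts. With the size factors of DESeq2 (RLE) in place of TMM, 4 members were called higher and 1 lower at week 8, against 243 of 595 miRNAs. With scaling to UniSp2 reads, 5 members were called, all lower, against 499 of 645 miRNAs.

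**Figure D2:**
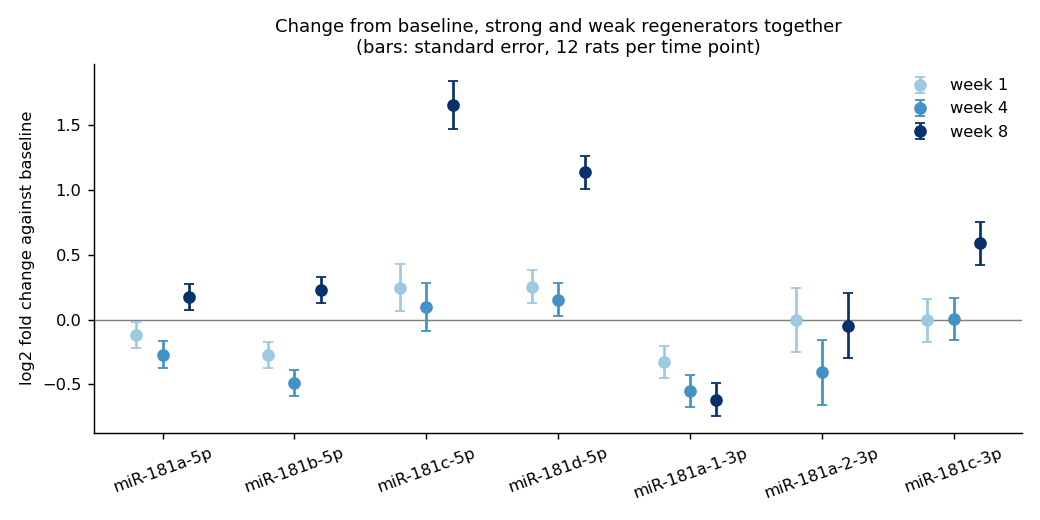
Log2 fold change against baseline (y axis) of the 6 members and of miR-181c-3p at weeks 1, 4 and 8, from the edgeR fit over 12 rats per time point, with bars for the standard error. With TMM, miR-181c-5p at 1.66 and miR-181d-5p at 1.14 stand above the other values at week 8 (-0.31 and -0.80 when scaled to UniSp2 reads), and miR-181a-1-3p lies below 0 at all 3 weeks.

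All 12 week 8 libraries differed from the earlier ones in the UniSp2 spike-in, an RNA added at extraction, with 91.1 to 144 reads per 1000 miRNA reads against 23.3 to 60.4 before. Time point and a batch shared by the week 8 samples cannot be told apart. For the 310 abundant miRNAs, the median change at week 8 was -0.12 with TMM and -2.01 on the log2 scale once counts were scaled to UniSp2 reads, which turned that of miR-181c-5p to -0.31, miR-181d-5p to -0.80, miR-181a-5p to -1.77 and miR-181b-5p to -1.71. The same scaling gave -0.06 for miR-181c-5p and -0.05 for miR-181d-5p at week 1, and -0.24 and -0.20 at week 4. With RLE in place of TMM, that median was 0.01. A scaling moves all miRNAs of a library alike, so values relative to the median of the abundant miRNAs in the same fit hardly depend on it by construction, and they give the place of a member among the other miRNAs only. Over TMM and 7 alternatives, miR-181c-5p lay between 1.71 and 1.83 above that median at week 8, miR-181d-5p between 1.22 and 1.26, miR-181b-5p between 0.31 and 0.37 and miR-181a-5p between 0.25 and 0.31. miR-181a-1-3p lay between -0.53 and -0.48 and miR-181a-2-3p between 0.00 and 0.10. At week 4, miR-181b-5p lay between -0.59 and -0.56, miR-181a-1-3p between -0.65 and -0.62 and miR-181a-5p between -0.38 and -0.34 relative to the median.

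Ratios between members of the same library do not depend on the scaling between libraries. Their summed level does depend on it, and scaled to UniSp2 reads each 5p member was below baseline at week 8. Relative to the miRNA total, the reads of the 4 5p members together had medians of 14853, 13294, 12233 and 18204 RPM at baseline and weeks 1, 4 and 8. Of these reads, miR-181c-5p and miR-181d-5p took 11.8% ± 2.69 before surgery, 15.0% ± 3.93 after 1 week, 15.6% ± 4.27 after 4 weeks and 23.3% ± 5.26 after 8 weeks (SD, n = 12 rats). This share was above the rat's own baseline in 9 rats at weeks 1 and 4 and in 12 at week 8, where 11 of 12 samples exceeded the highest baseline sample. The ratio of miR-181d-5p to miR-181c-5p reads had medians of 1.45, 1.44, 1.41 and 0.938, and at week 8 it was below baseline in 12 of 12 rats. Both the share of the chromosome 19 cluster and the weight of miR-181c-5p in it were thus higher at week 8. The other pair kept a narrower ratio. miR-181a-5p had 3.59, 4.04, 4.19 and 3.58 reads per miR-181b-5p read in the medians of the 4 time points, with all 48 samples between 2.74 and 4.74. miR-181b-5p took 19.1% ± 0.883 of the 5p reads at baseline and 16.9% ± 0.821, 16.3% ± 0.691 and 17.2% ± 0.782 at weeks 1, 4 and 8 (SD, n = 12). At each of these weeks it was below the rat's own baseline in 12 of 12 rats. The samples below the lowest baseline sample were 10, 12 and 11 of 12.

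**Figure D3:**
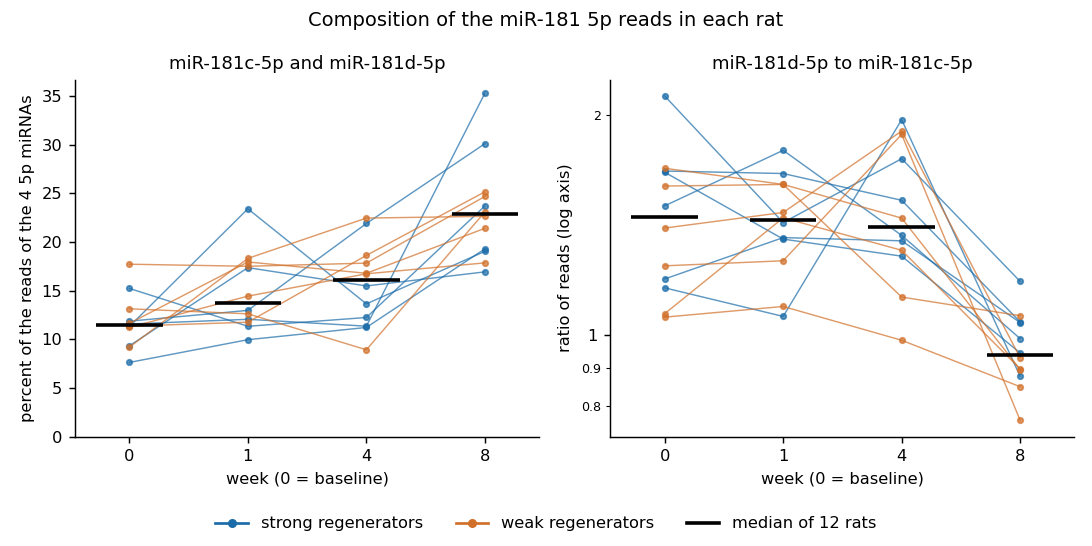
Left, share of miR-181c-5p and miR-181d-5p in the reads of the 4 miR-181 5p miRNAs (percent); right, ratio of miR-181d-5p to miR-181c-5p reads (log axis), by week, with 1 line per rat, strong regenerators in blue and weak ones in orange. The black medians of 12 rats go from 11.5% at baseline to 22.8% at week 8 for the share and from 1.45 to 0.938 for the ratio.

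The arms of a hairpin come from the same precursor, and their ratio was followed within each library. miR-181a-5p, which both a-type hairpins give, had 37.3, 42.2, 45.9 and 65.2 reads per read of miR-181a-1-3p in the medians of baseline and weeks 1, 4 and 8. All 12 week 8 samples, between 56.3 and 79.6, were above the highest baseline sample at 47.5. For the miR-181c hairpin, the medians were 8.34, 9.9997, 8.94 and 17.01 reads of the 5p arm per read of the 3p arm. Of the 12 week 8 samples, which lay between 12.3 and 22.9, 11 exceeded the highest baseline sample at 12.4. miR-181c-3p itself had medians of 84.3 RPM at baseline and 122 at week 8, with a log2 fold change of 0.59 (standard error 0.16), against 1.66 for miR-181c-5p. The 5p reads thus outweighed the 3p reads further at week 8 in both pairs. The miR-181c-3p values were higher and the miR-181a-1-3p values lower than at baseline. Since miR-181a-5p reads come from both a-type hairpins, its ratio is not the balance of arms of either hairpin. Arms of other hairpins also moved apart at week 8, in either direction. The log2 fold change was 1.16 for miR-142-3p and -1.26 for miR-142-5p, and 1.15 for miR-144-5p and -0.41 for miR-144-3p. A shift between arms was thus not particular to miR-181, and its cause was not tested. The ratio of miR-181a-5p to miR-181a-2-3p had medians of 480, 430, 473 and 624 at the 4 time points and ranged from 156 to 1789 over the 48 samples, on few reads of the 3p arm.

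**Figure D4:**
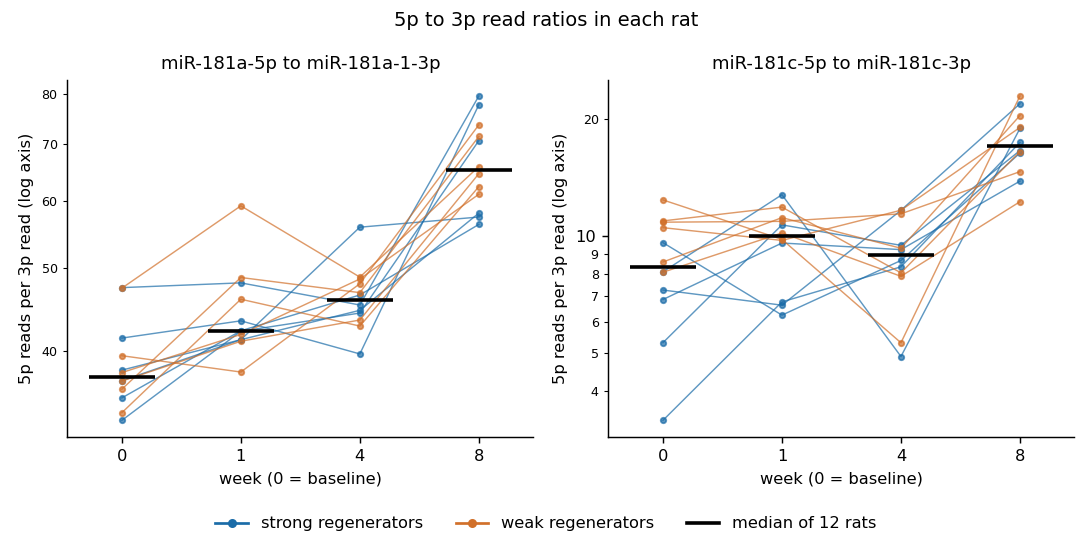
Reads of the 5p arm per read of the 3p arm (log axis) for miR-181a-5p to miR-181a-1-3p (left) and miR-181c-5p to miR-181c-3p (right) by week, with 1 line per rat, strong regenerators in blue and weak ones in orange, and black bars for the median of 12 rats. Medians at baseline and week 8 are 37.3 and 65.2 on the left and 8.34 and 17.01 on the right.

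A question of the study was which circulating miRNAs differ between rats with strong and weak regeneration, and no miR-181 member was called in this comparison. Over all 4 time points, the edgeR fit with the time point as a covariate gave log2 fold changes, strong against weak, of 0.07 for miR-181a-5p (95% confidence interval -0.08 to 0.22, FDR = 0.818), 0.11 for miR-181b-5p (-0.04 to 0.25, FDR = 0.664), -0.06 for miR-181c-5p (-0.33 to 0.20, FDR = 0.903) and 0.05 for miR-181d-5p (-0.13 to 0.23, FDR = 0.902). For miR-181a-1-3p, it was 0.10 (-0.08 to 0.28, edgeR FDR = 0.758). The largest value of the 6 was that of miR-181a-2-3p at -0.32 (-0.67 to 0.03, edgeR FDR = 0.536). Of all 645 miRNAs tested, 0 (0%) were called, 64 had an unadjusted p under 0.05, and DESeq2 called 0. The study, also with edgeR at an FDR under 0.05, called miR-133a-3p higher and miR-375-3p lower in strong regenerators over all time points. Why its calls differ from those made here was not tested. The fits made here treat the 4 samples of a rat as independent. With the counts of each rat summed, 0 members were called too.

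At single time points, 0 of 6 members were called at baseline, week 1, week 4 or week 8, where edgeR called 0%, 0%, 0% and 0.155% of the 645 miRNAs, and DESeq2 called none of the members. At baseline, 42 miRNAs had an unadjusted p under 0.05, at week 1 there were 32, at week 4 there were 25 and at week 8 there were 35. None of these was a member. The log2 fold change of the 4 5p members between groups lay between -0.18 (miR-181c-5p at week 4) and 0.18 (miR-181b-5p at week 4) over all time points. Among the 5p members, the intervals were widest for miR-181c-5p, from -0.67 to 0.40 at baseline and from -0.58 to 0.49 at week 8, so differences within these bounds are not excluded here. For miR-181d-5p, the week 8 ranges were 1769 to 3063 RPM in strong and 1548 to 2165 RPM in weak regenerators, which overlap, and the log2 fold change was 0.15 (95% confidence interval -0.23 to 0.53, edgeR FDR = 0.955).

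miR-181a-2-3p had a median of 26.2 RPM in strong and 18.6 in weak regenerators at baseline, 21.9 and 24.3 at week 1, 12.01 and 15.8 at week 4, and 18.8 and 24.7 at week 8. Its log2 fold change between the groups was 0.29 at baseline (95% confidence interval -0.37 to 0.96, edgeR FDR = 0.836), -0.53 at week 1 (-1.21 to 0.15, FDR = 0.900), -0.55 at week 4 (-1.25 to 0.15, FDR = 0.851) and -0.55 at week 8 (-1.26 to 0.16, FDR = 0.801). At week 4, it was below its own baseline in 6 of 6 strong and in 3 of 6 weak regenerators. Strong minus weak, the change from baseline differed by -0.82, -0.84 and -0.84 (log2) at weeks 1, 4 and 8, with edgeR FDR = 0.9998, 0.705 and 0.9998, so these differences were not called.

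The same interaction term was fitted for the other members, to compare the course over time of strong and weak regenerators. This fit has no term for the rat, so the pairing of samples by rat is not used in it. At week 8, the difference in the change from baseline was 0.09 for miR-181c-5p (95% confidence interval -0.67 to 0.84) and 0.12 for miR-181d-5p (-0.41 to 0.66), with edgeR FDR = 0.9998 for both. It was -0.22 (-0.64 to 0.21) for miR-181a-5p, -0.19 (-0.61 to 0.22) for miR-181b-5p and -0.17 (-0.69 to 0.35) for miR-181a-1-3p. Over the 3 weeks, 0 of 6 members and 0% of 645 miRNAs were called, with 27, 38 and 26 miRNAs at an unadjusted p under 0.05 at weeks 1, 4 and 8, and DESeq2 called 0. With the rat as a block, 0 of 6 members were called at each of these weeks too. Relative to the miRNA total, miR-181c-5p and miR-181d-5p were above baseline at week 8 in 6 of 6 strong and 6 of 6 weak regenerators. Scaled to UniSp2 reads, the log2 fold changes of both over all rats were below baseline (-0.31 and -0.80).

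**Figure D5:**
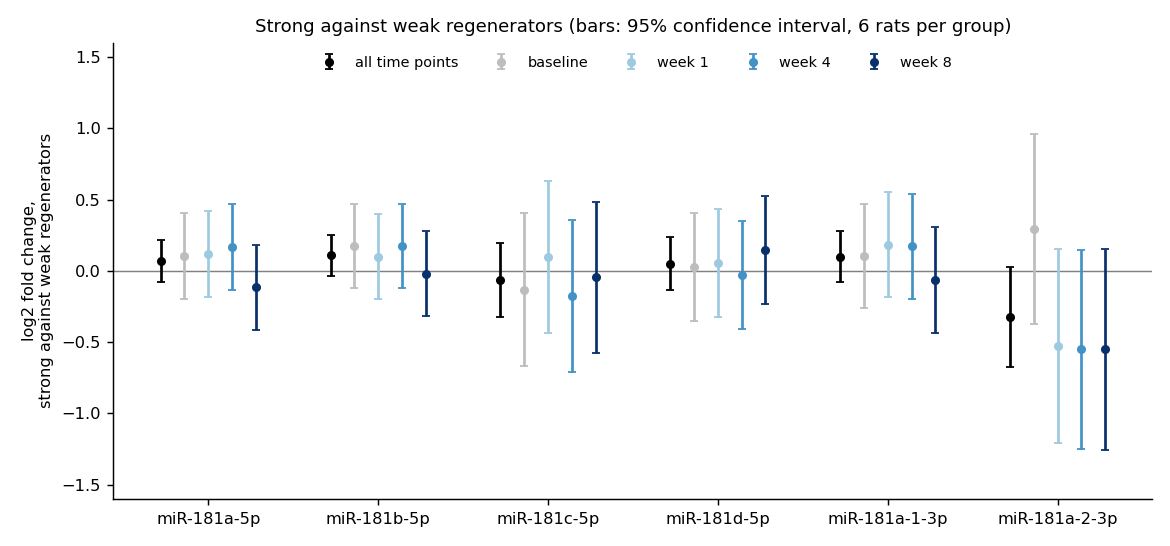
Log2 fold change of strong against weak regenerators (y axis) for the 6 members over all time points and at each time point, with bars for the 95% confidence interval of the edgeR fit and 6 rats per group. Each bar crosses 0, and miR-181a-2-3p has the widest bars.

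The arm ratios, averaged over the 4 samples of a rat as log2 of (RPM + 1), were compared between the groups by a two-sided exact permutation test over the 12 rats, with Benjamini-Hochberg adjustment over 90 arm pairs of the table. The mean log2 ratio of miR-181c-5p to miR-181c-3p was 3.23 ± 0.163 in strong and 3.48 ± 0.133 in weak regenerators (SD, n = 6 rats, exact permutation p = 0.0152, adjusted p = 0.519). The rats overlapped, from 2.91 to 3.38 in strong and from 3.23 to 3.60 in weak regenerators, and the difference of -0.25 was not called after adjustment. For miR-181a-5p to miR-181a-2-3p, the means were 9.08 ± 0.233 and 8.69 ± 0.339 (exact permutation p = 0.0455, adjusted p = 0.682), and for miR-181a-5p to miR-181a-1-3p they were 5.56 ± 0.101 and 5.58 ± 0.103 (exact permutation p = 0.667, adjusted p = 0.945; SD, n = 6 rats each). Of the 90 arm pairs, 0 passed the adjustment and 6 had an unadjusted p under 0.05. At baseline, miR-181c-3p was at 102 RPM in the median of strong and at 69.6 in that of weak regenerators, a log2 fold change of 0.49 (0.04 to 0.94, edgeR FDR = 0.677).

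Likeness between miRNAs was described by Spearman's rho of log2(RPM + 1) over the 48 samples, which share rats and time points, among the 310 miRNAs with a mean of at least 10 RPM. The family fell into 2 pairs that follow the hairpin clusters. The miRNA most like miR-181c-5p was miR-181d-5p, with rho = 0.92, and the miRNA most like miR-181a-5p was miR-181b-5p, with rho = 0.86, in each case in both directions. Members that are closest in sequence were less alike, with rho = 0.28 for miR-181a-5p and miR-181c-5p and 0.47 for miR-181b-5p and miR-181d-5p. The highest rho across the pairs was 0.53, for miR-181b-5p and miR-181c-5p. After the mean of each time point was taken off, rho was 0.83 for miR-181c-5p with miR-181d-5p, 0.92 for miR-181a-5p with miR-181b-5p, -0.05 for miR-181a-5p with miR-181c-5p and 0.05 for miR-181b-5p with miR-181d-5p. miR-181a-1-3p went with miR-181a-5p by rho = 0.60 as the values stand and by 0.89 after the time point means were taken off, when miR-181a-5p was the likest of all miRNAs to it.

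Outside the family, miR-26a-5p and miR-103-3p were next in likeness to miR-181c-5p (rho = 0.84 and 0.79) and to miR-181d-5p (0.77 and 0.82), and at week 8 their own log2 fold changes were 0.91 (standard error 0.14) and 1.08 (0.11). With the time point means taken off, miR-451-5p, the erythrocyte miRNA, and miR-1949 followed for miR-181c-5p (0.62 and 0.60), and miR-488-3p and miR-128-3p for miR-181d-5p (0.59 and 0.51). For miR-181a-5p, they were miR-532-5p and miR-24-2-5p as the values stand (0.71 and 0.69), and miR-532-5p with the means taken off (0.75). For miR-181b-5p, they were miR-532-5p and miR-99a-3p (0.73 and 0.70), and miR-425-5p with the means taken off (0.66). miR-181a-1-3p was most like miR-149-5p, miR-322-5p and miR-351-3p (0.73 each), which had log2 fold changes of -1.94, -1.59 and -2.56 at week 8, and with the means taken off it was miR-425-5p that came after miR-181a-5p and miR-181b-5p (0.75). miR-181a-2-3p had no close match, with miR-99b-3p, miR-497-5p and miR-199a-5p at 0.48, 0.45 and 0.42, and miR-34c-5p, miR-497-5p and miR-296-5p at 0.44, 0.42 and 0.39 with the means taken off.

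miRNAs that mark possible sources of plasma RNA moved with the time points as well, and their part in the family's values was not tested. At week 1, 5 of the 6 listed red blood cell miRNAs (median log2 fold change 0.46) and 2 of the 3 liver miRNAs tested were called higher, against 12.5% of all miRNAs tested, and at week 4 none of those tested was called. The red blood cell miRNAs, led by miR-451-5p, miR-16-5p and miR-486, summed to 235459 to 334948 RPM at baseline and to 319974 to 430058 at week 8, when 3 were called higher and 1 lower. The 6 leukocyte miRNAs, which include the lymphocyte miRNA miR-150-5p, summed to 21525 to 71710 RPM at baseline (median 41896) and 12849 to 30158 at week 8 (17318), with 2 called higher and 4 lower. The 6 platelet miRNAs summed to 110951 to 171420 RPM at baseline and 75864 to 136425 at week 8, with 0 higher and 2 lower. Of 4 liver miRNAs, the 3 tested gave 1 higher and 2 lower, of 6 nervous system miRNAs the 3 abundant ones gave 1 higher, and the 3 abundant of 5 skeletal muscle miRNAs gave 0 calls. Over all miRNAs tested at week 8, 14.2% were called higher and 26.1% lower. Between strong and weak regenerators over all time points, 0 miRNAs of the 6 lists were called. Over the 48 samples, miR-129-5p was at 0 in 23 samples, miR-9a-3p in 12 and miR-124-3p in 9, and the other defining miRNAs were at 0 in at most 7.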

How the data were processed

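Plasma small RNA of 12 rats at 4 time points gave 48 samples. The authors trimmed adapters and removed short reads with cutadapt 3.3, mapped reads to the rat genome and to rat miRNAs of miRBase (with up to 1 mismatch) by Bowtie 1.3.0 and miRDeep2, and deposited raw counts for 645 miRNAs and 3 spike-ins. The submitters' processing notes list GRCh38.p12 as genome build and the study's methods a rat build, so no coordinates are given. Counts were used as deposited. RPM are relative to the miRNA total, and the depth was 393259 to 1586398 reads per sample. Reads are not known to be independent molecules, so counting error is a lower limit.

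Samples were grouped by the animal and time point in the labels, and the baseline samples, labelled unknown, by their animal. Counts of all miRNAs were fitted with edgeR 4.0.16 (R 4.3.3, TMM, quasi-likelihood method of edgeR version 3), an independent filter on mean RPM after DESeq2 and Benjamini-Hochberg adjustment (FDR), with calls under 0.05. Single arm ratios were compared by exact permutation with scipy 1.17.1. The fit was tested on simulated data. Same-numbered samples come from the same rat, and their deviations from group means correlated at 0.107 on average, against -0.029 for different rats, with 6 of 12 rats over 0.1. The lowest chi-square per degree of freedom over the 1128 pairs of samples was 24.7, so no sample copied another.

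The members and the 6 lists (red blood cells, platelets, leukocytes, nervous system, skeletal muscle and liver) were chosen with earlier results of these data known. Named were the members, the other arms of their hairpins, the 3 likest miRNAs of each member, the most abundant miRNAs of the lists and those the study called between strong and weak regenerators. miRNAs of the lists named for 0 counts, for the shift between their arms or as lymphocyte miRNA were named after their values were seen. Alternatives were library size, RLE size factors or UniSp2 reads in place of TMM, no filter, DESeq2 1.42.0, the rat as a block, a fit on the time points compared, summed samples of a rat, each rat or week 8 left out, other pseudocounts, minimum levels, shares and correlations. The mature sequence of miR-181b-2-3p was not used here.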

Additional observations from a re-analysis of the deposited data

Results flagged for a closer look

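Within the groups of 6 samples, the highest or lowest level of a member lay far from the other samples in 3 of 48 groups looked at. Chance gives about 1 in 20, which is near this share, and the groups of different members share samples, so no excess is read from them. miR-181b-5p was at 4510.3 RPM (3097 reads) in strong rat 5 at baseline, with the other 5 strong regenerators between 2482 and 3068. miR-181c-5p was at 1600.3 RPM (1278 reads) in strong rat 5 at week 1, with the others between 565 and 912. miR-181d-5p was at 933 RPM (1294 reads) in weak rat 3 at week 1, with the others between 1071 and 1138. No difference in the change from baseline between strong and weak regenerators passed its test for any member.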

How the results depend on the processing

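No member was called between strong and weak regenerators, at any time point or in the change from baseline, under TMM, library size, size factors (RLE), UniSp2 reads, no filter, DESeq2, the rat as a block or summed samples where these were fitted. Rats were left out in turn for the comparison over all time points, again with 0 members called, and not for the single time points or the change from baseline. At week 1 against baseline, 2 members were called, beside 50 of all 232 miRNAs tested. There were 3 with UniSp2 reads (62 of 445 miRNAs) and 2 with DESeq2 (60 of 354). RLE gave 1 (53 of 220) and library size gave 1 (32 of 357). There were 0 without the filter (25 of 645) and 0 in the fit on the time points compared (43 of 308). With the replicate block it was 0 as well (49 of 407). With 1 rat left out, 0 to 1 were called, the 1 without weak rat 6 and 0 without each of the other 11. Over all miRNAs, 24 to 47 were called in these fits. At week 4, 2 were called (27 of 645 miRNAs), 4 with UniSp2 reads (61 of 470) and 3 with library size (29 of 357). With any rat left out it was 2, beside 23 to 35 miRNAs in all. At week 8, 3 were called (2 higher and 1 lower), beside 250 of 620 miRNAs. It was 4 with the replicate block (253 of 532) and in the fit on the time points compared (246 of 585). RLE (243 of 595) and DESeq2 (231 of 517) each called 5, 4 higher and 1 lower. UniSp2 reads gave 5, all lower, beside 499 of 645 miRNAs. With 1 rat left out, it was 3 to 5, with 5 without strong rat 5, 23 or 29, beside 224 to 249 miRNAs in all. As the family was chosen with these contrasts in view, nothing is read from these counts. The pairing by rat changed no other count of calls.

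Scaling to UniSp2 reads turned week 8 against baseline to -0.31 for miR-181c-5p and -0.80 for miR-181d-5p. Between strong and weak regenerators, values near 0 changed sign, and none was called before or after. With UniSp2 reads, week 4 became -0.11 for miR-181a-5p, -0.12 for miR-181b-5p and -0.10 for miR-181a-1-3p, and week 8 became 0.0383 for miR-181b-5p and 0.0466 for miR-181c-5p. The difference in the change from baseline became, at week 1, -0.0955 for miR-181a-5p, -0.0437 for miR-181d-5p and -0.0179 for miR-181a-1-3p, and at week 4, -0.31 for miR-181a-5p, -0.40 for miR-181b-5p and -0.31 for miR-181a-1-3p. With library size, week 8 became 0.052 for miR-181a-5p, 0.13 for miR-181b-5p, 0.0753 for miR-181c-5p and 0.10 for miR-181a-1-3p, whose difference in the change at week 8 became 0.0035. For miR-181d-5p, week 4 became 0.0233 with DESeq2 and 0.0232 with RLE. For miR-181c-5p, all time points became 0.11 with summed samples and 0.0485 without strong rat 29 (-0.15 to 0.0485 over the rats left out), and the difference in the change at week 4 became 0.0278 with the replicate block. The cause of these changes of sign was not tested.

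The share of miR-181c-5p in the reads of miR-181a-5p and miR-181c-5p was 6.72%, 8.51%, 8.75% and 16.8% at baseline and weeks 1, 4 and 8, and that of miR-181d-5p in those of miR-181b-5p and miR-181d-5p was 26.2%, 33.6%, 35.5% and 39.3%. Depth limits miR-181a-2-3p most, with 4 to 53 reads per sample.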
